A study of Mus musculus with 3 samples.

Results

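The regions described here are 1004 strong peaks of 5-methylcytosine (5mC) found in Sham cardiomyocytes at places where the TAC list has no peak. They were chosen from the Sham peak list: autosomal peaks in the first 20% of the list in file order, with no TAC peak overlapping them or lying within 1000 bp. The Sham list holds 135886 peaks, of which 26988 were strong and autosomal, and 3.72% of those met the rule. Among all 134294 autosomal Sham peaks of any strength, 29.3% had no TAC peak that near. The same rule turned round gave 1717 strong TAC peaks absent from Sham, 5.33% of 32189, against 40.2% of all autosomal TAC peaks. With the TAC list held to the Sham number of peaks the numbers were 1172 and 1057, so which is larger turns round with the length of the TAC list. The first 20% of the shorter TAC list also holds fewer peaks, so the TAC strength limit moved in that setting too. Absence and strength are therefore what the choice used, and they are given as a description.

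DNA was immunoprecipitated with an antibody against 5mC and sequenced (MeDIP-seq), and a peak is a stretch where methylated fragments were enriched over input. The groups were cardiomyocytes isolated after TAC (transverse aortic constriction, a surgical pressure overload, of 1 week according to the series title), cardiomyocytes isolated after Sham surgery, and an Input library without antibody. All came from male C57Bl6/J mice with a labelled age of 8 weeks, and the labels name no other allele or agent. Each group has 1 library, the sources used here do not say whether animals were pooled, and every difference below is between those libraries with no replicate check. Intervals are exact 95% intervals, cover counting error only, and treat neighbouring peaks as independent, which they are not.

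In mammals 5mC sits mainly at CG dinucleotides (CpG). Most CpGs of the genome are methylated, including those in the bodies of transcribed genes, whereas promoters rich in CpG are usually free of it. A group of germline genes is a known exception, though not the only one, since methylation of their promoters keeps them silent in body cells. A MeDIP peak needs both CpGs and their methylation, so it is not a methylation level.

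The TAC library had 14658177 tags with 34.67% in peaks and the Sham library 12585289 tags with 29.88% in peaks, per the file headers. A stretch without a TAC peak can still hold TAC tags below the peak caller's threshold of 12, or a candidate that the comparison with input (2297 in TAC) or the clonality filter (210) removed. The headers also list a 4-fold requirement over the local 10000 bp, which could remove a candidate as well. File order falls into blocks that add up to nearly all tags in peaks if each block is worth 1 tag less than the one before. The tags of a peak read from its block are its inferred tags. By this reading the strong TAC peaks had at least 40 tags and the strong Sham peaks at least 34, which is 27.29 in TAC and 27.02 in Sham per 10000000 tags. The labelled cell type could not be checked from 5mC peaks. Of 6 cardiomyocyte marker genes (Myh6, Tnnt2, Tnni3, Actn2, Ryr2 and Myl2), 0 held one of the 1004 regions, and together they held 50 TAC and 31 Sham peaks. Fibroblast markers held 12 TAC and 9 Sham peaks with 1 of the regions, in Pdgfra. Immune markers held 23 TAC and 14 Sham peaks, endothelial markers 30 and 34, and smooth muscle and pericyte markers 20 and 20, each with 0 of the regions.

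Promoter sequences are shown for the first 6 genes in file order whose 300-base promoter window, from 250 bases before to 50 after the start, was touched by one of the regions. They let the CpG content of these promoters be read directly: CpGs are in capitals, and the sequences are RefSeq's for GRCm38.p6, the assembly that mm10 names.
Ccin, chr4:43983254-43983553, plus strand: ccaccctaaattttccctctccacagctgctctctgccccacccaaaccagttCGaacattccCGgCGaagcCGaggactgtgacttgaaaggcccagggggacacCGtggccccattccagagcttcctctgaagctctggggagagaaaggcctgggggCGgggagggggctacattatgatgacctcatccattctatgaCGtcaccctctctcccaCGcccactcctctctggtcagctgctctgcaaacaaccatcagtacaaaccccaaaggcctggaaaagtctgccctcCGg
Olfr282, chr15:98437220-98437519, plus strand: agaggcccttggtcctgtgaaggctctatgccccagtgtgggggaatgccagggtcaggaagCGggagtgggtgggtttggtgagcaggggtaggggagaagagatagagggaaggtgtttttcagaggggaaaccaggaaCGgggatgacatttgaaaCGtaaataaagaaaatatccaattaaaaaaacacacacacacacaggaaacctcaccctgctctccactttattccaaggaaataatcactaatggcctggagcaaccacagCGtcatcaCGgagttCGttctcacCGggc
Gm32028, chr19:56191588-56191887, plus strand: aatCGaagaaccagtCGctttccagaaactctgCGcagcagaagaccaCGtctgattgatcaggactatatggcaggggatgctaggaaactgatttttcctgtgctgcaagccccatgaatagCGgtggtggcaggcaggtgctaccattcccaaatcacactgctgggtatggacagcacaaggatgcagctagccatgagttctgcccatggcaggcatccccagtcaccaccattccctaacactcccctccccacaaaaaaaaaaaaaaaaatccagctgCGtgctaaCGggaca
Ccdc185, chr1:182749131-182749430, minus strand: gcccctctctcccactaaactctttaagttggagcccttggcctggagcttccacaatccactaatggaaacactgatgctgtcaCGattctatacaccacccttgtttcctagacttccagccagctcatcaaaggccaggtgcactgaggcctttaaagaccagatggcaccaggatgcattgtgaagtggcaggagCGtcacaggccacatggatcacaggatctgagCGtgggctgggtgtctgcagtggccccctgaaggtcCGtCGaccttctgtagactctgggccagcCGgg
Tdgf1, chr9:110946109-110946408, minus strand: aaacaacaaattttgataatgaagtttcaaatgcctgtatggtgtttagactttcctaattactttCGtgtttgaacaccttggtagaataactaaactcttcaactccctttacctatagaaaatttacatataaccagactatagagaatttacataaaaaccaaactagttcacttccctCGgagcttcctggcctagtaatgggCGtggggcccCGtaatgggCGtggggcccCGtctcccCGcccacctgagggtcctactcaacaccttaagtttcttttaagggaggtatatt
Olfr283, chr15:98379148-98379447, minus strand: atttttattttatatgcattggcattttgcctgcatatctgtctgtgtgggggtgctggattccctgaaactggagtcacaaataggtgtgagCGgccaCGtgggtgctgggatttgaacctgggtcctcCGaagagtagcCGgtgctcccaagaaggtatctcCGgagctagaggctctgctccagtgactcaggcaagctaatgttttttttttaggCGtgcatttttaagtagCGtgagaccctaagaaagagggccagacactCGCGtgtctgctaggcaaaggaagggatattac

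These 6 windows hold between 6 and 9 CpGs. A further 4 promoters, chosen after their values were seen, are shown because they are those of a germ cell gene, a piRNA gene, renin and a T cell kinase. They run from 31 CpGs in Henmt1 to 1 in Ren1.
Tex19.1, chr11:121145893-121146192, plus strand: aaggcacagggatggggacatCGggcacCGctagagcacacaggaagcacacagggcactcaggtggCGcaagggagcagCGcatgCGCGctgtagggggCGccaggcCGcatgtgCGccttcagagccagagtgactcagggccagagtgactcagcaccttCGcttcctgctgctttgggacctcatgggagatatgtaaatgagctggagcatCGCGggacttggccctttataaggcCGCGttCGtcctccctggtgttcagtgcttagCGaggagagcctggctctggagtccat
Henmt1, chr3:108940307-108940606, plus strand: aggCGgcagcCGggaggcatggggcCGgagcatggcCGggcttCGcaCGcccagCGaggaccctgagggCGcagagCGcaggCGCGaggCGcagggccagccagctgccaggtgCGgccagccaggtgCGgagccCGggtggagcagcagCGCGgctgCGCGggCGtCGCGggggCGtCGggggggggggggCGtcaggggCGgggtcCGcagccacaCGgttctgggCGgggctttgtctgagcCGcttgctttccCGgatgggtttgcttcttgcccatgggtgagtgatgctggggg
Ren1, chr1:133350424-133350723, plus strand: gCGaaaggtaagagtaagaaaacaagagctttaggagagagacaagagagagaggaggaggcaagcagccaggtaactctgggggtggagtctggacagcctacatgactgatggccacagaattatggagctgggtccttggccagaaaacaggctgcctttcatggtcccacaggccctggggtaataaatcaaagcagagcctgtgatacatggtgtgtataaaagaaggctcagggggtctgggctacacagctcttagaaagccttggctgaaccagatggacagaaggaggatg
Lck, chr4:129573592-129573891, minus strand: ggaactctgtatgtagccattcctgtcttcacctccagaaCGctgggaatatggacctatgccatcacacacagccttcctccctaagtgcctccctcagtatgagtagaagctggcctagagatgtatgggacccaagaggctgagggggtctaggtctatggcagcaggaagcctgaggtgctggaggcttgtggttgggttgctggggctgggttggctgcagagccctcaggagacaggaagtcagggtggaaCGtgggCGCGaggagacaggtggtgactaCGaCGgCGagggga

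One region also covered the hairpins of both microRNA genes of the miR-142 locus, which is active in blood cells. Their mature sequences from RefSeq are shown with the seed, bases 2 to 8, in capitals. The miR-142a arms and miR-142b, which is read from the opposite strand, have 3 different seeds.
miR-142a-5p: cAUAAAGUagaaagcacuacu
miR-142a-3p: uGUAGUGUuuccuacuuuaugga
miR-142b: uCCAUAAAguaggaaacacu

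The 3 regions with the most inferred tags were all within Sfi1, which encodes a centrosome protein, on chromosome 11. They span chr11:3193081-3193581 with 350 tags, chr11:3150256-3150966 with 338 and chr11:3155666-3156166 with 337, and the nearest TAC peaks were 12369, 28023 and 23919 bp away. Sfi1 held 1 TAC peak and 3 Sham peaks in all. The TAC peak of Sfi1, at chr11:3180086-3180711, had 227 inferred tags and lay 12369 bp from the nearest Sham peak, so each library had its own peaks in this gene and none in common. The first of the Sfi1 regions had 698.6 inferred tags per kb, the most of the 1004, while the other strong Sham peaks reached at most 495.2. Why these narrow peaks held so many tags was not tested, so they are not read as a methylation difference in this gene.

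The fourth region, with 277 tags, lay where Cmss1 and Filip1l overlap on chromosome 16 (57390373 to 57391823). Next came 2548 bp in Rps6ka2, the gene of a ribosomal S6 kinase, with 150 tags at chr17:7138930-7141477, and 3166 bp in Atp9a, the gene of a P4-type membrane ATPase, with 127 tags at chr2:168651240-168654405. The Atp9a region was the widest of the 1004, and a second one with 81 tags lay beside it at chr2:168650141-168650641. Ripor2 held one of 119 tags at chr13:24549606-24550232. These strong peaks stood in genes with peaks in both libraries. With the regions counted, there were 27 TAC and 36 Sham peaks in Rps6ka2, 21 and 21 in Atp9a, and 26 and 33 in Ripor2.

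The rest of the first 20 had between 81 and 110 tags. In genes they lay in Insl6 (an insulin-like gene of the testis, 102 tags), Acbd3 (a Golgi protein, 88), Fars2 (the mitochondrial phenylalanyl-tRNA synthetase, 88), Slc12a9 (87), Mib2 (a ubiquitin ligase of Notch signalling, 86) and Depdc1b (82). The remaining 6 lay outside protein-coding genes. The nearest such genes were Ttc34 at 83.02 kb, Vmn1r238 at 114.9 kb, Mc2r at 262.6 kb, Dpf3 at 13.69 kb, Gm10573 at 291.3 kb and Frmd8 at 34.78 kb.

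**Figure D1:**
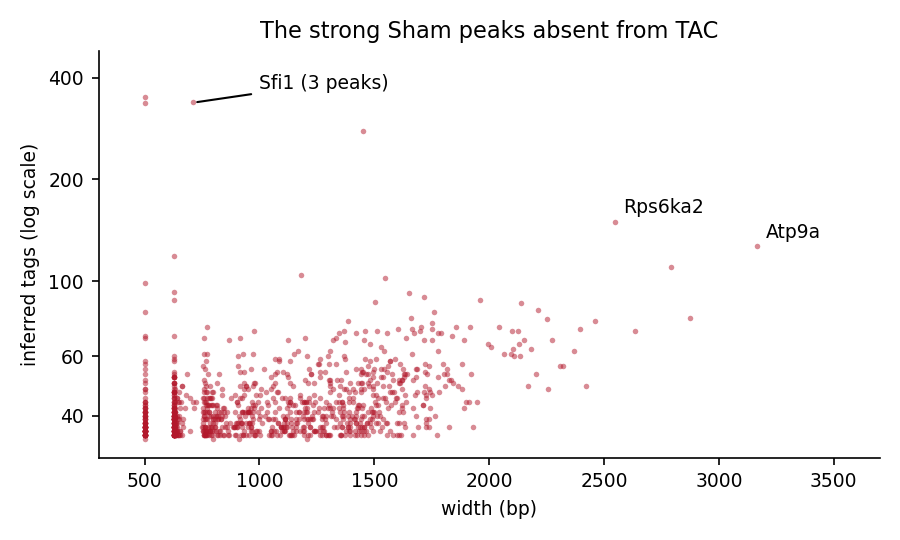
Width in bp (linear axis) against inferred tags (log axis) of the 1004 strong Sham peaks absent from TAC, with 1 point per region. The 3 Sfi1 peaks stand at the top with 337 to 350 tags at narrow widths, Rps6ka2 and Atp9a combine many tags with widths of 2548 and 3166 bp, and most regions have between 34 and 60 tags.

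By file order as the measure of strength, the regions were wider than the other strong Sham peaks. Their median width was 1022.5 bp (interval 964 to 1080), against 806 bp (800 to 814) for the 25984 other strong Sham peaks and 777 bp (767 to 789) for the strong TAC peaks absent from Sham. Their median tag number was 41, against 53 for the other strong Sham peaks, and the median per kb of peak was 42.9 against 65.1. Tag number is what the rule ranks by, so the median tag number only describes the choice. Width was not used in the choice, and tags per kb depend on width as well as on tag number. With the first 30% of the list taken as strong the widths were 773 and 761 bp, and with the widest 20% of peaks they were 863 and 945 bp, which reverses the direction. Atp9a was followed among the widest by Ankrd13a, which encodes a ubiquitin-binding protein (2875 bp), a region 83.02 kb from Ttc34 (2792 bp), and Fgfr1, a receptor for fibroblast growth factors (2633 bp). Rps6ka2 (2548 bp), Aldh4a1 (2462 bp), a mitochondrial enzyme of proline breakdown, Rab6b (2420 bp), a Golgi GTPase, and Fhad1 (2394 bp) came next. The tenth in width, of 2322 bp, lay 200.8 kb from Irx2, a homeobox gene.

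The width difference was also present among peaks of like strength. With the strong list cut into 5 equal slices by file order, the regions numbered 18, 81, 176, 297 and 432 from the strongest slice to the weakest, among 5392, 5401, 5405, 5392 and 5398 autosomal peaks. Their share was 0.334% in the first slice and 8.00% in the last. The rise along the slices involves the ranking that chose them. Their median widths were 1477, 1602, 1335, 952 and 865 bp, against 1127, 903, 783, 760 and 645 bp for the other strong peaks of the same slices. They were wider in 5 of 5 slices. Their share in protein-coding genes was 66.7%, 79.0%, 60.2%, 67.0% and 63.2%, against 51.5%, 50.5%, 51.2%, 49.3% and 47.6%, and the intervals overlapped only in the first slice, with 18 regions.

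**Figure D2:**
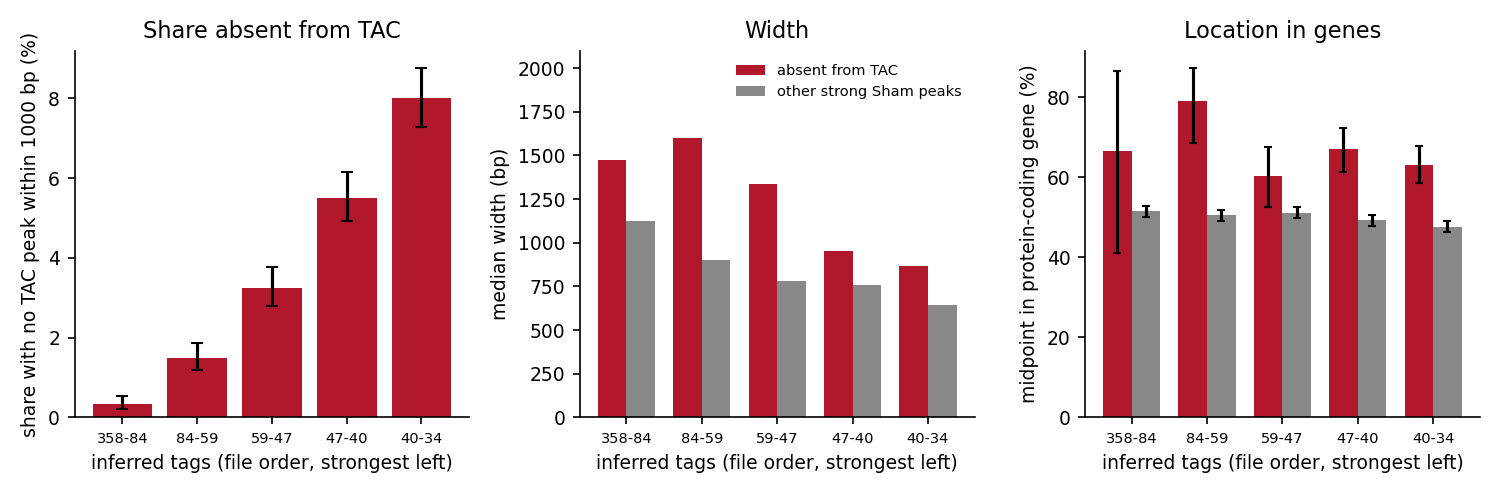
Share of strong autosomal Sham peaks that had no TAC peak within 1000 bp, and median width and share in protein-coding genes of these regions and of the other strong Sham peaks, in 5 slices of the list from strongest to weakest. The share without a TAC peak is 0.334% in the first slice and 8.00% in the last, and the regions are wider and more often in genes than the other peaks in every slice.

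The nearest TAC peak was 3629.5 bp away at the median, with a middle range of 2073 to 6952 bp. It was at least 5000 bp away for 358 regions, at least 10000 bp for 147 and at least 20000 bp for 33. For the strong TAC peaks absent from Sham the median distance to a Sham peak was 6598 bp. The farthest region lay in Zfp600, a zinc finger gene on chromosome 4, with 37 tags and no TAC peak for 95058 bp, followed by one in Fat4, a giant cadherin gene, at 53238 bp. Both genes were named for this distance after their values were seen, as were Lcmt1 (39594 bp), Pam (37298 bp) and Olfr691 (37012 bp).

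Just inside the distance limit were regions in Dsp, the desmoplakin gene (1000 bp), Erg (1005 bp) and Elovl6 (1011 bp), and near Nek2 (1015 bp) and Banf2 (1017 bp). Just outside it were peaks near Sqle (996 bp) and Gm41408 (995 bp) and in Zfp764 (993 bp), Eef2 (989 bp) and Sdk2 (977 bp). The last region in file order stood at row 27172 with 34 tags, and the first peak past the limit of 27177 rows that lacked a TAC peak stood at row 27179, also with 34 tags. Among the 25984 strong peaks that did not qualify, 25794 overlapped a TAC peak and 190 had one nearby.

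The regions lay in genes more often than the peaks they were drawn from. Of the 1004, 654 or 65.1% (62.1 to 68.1) had their midpoint in a protein-coding gene, against 50.1% (49.4 to 50.7) of the other strong Sham peaks. The share was 49.8% for the 38309 weaker Sham peaks absent from TAC and 37.6% (35.33 to 39.96) for the strong TAC peaks absent from Sham. For the other strong TAC peaks it was 45.15% (44.59 to 45.71), so these too lay in genes less often than the other strong Sham peaks. The intervals of these shares did not overlap those of the regions. A long non-coding RNA gene alone held 6.67% of the regions and 9.23% of the other strong Sham peaks. Outside annotated genes lay 27.4% of the regions and 39.9% of the other strong Sham peaks. Within chromosomes the share in protein-coding genes ran from 48.9% to 82.8% for the regions and from 36.3% to 61.3% for the other strong Sham peaks, and it was higher for the regions on 19 of 19 autosomes.

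Inside genes the regions were fewer in the part next to the 5' end than in other parts. For 500 of them with a single protein-coding host of known strand, 13.2% (10.4 to 16.5) lay in the first 1 of 5 equal parts of the gene from its 5' end and 25.6% (21.8 to 29.7) in the last, with 16.6%, 21.8% and 22.8% between. Among 9941 other strong Sham peaks the first part held 17.96% (17.2 to 18.7) and the last 22.5% (21.7 to 23.3). Among 488 strong TAC peaks absent from Sham those shares were 20.3% (16.8 to 24.1) and 18.9% (15.5 to 22.6). The other strong Sham peaks thus also increased toward the 3' end. In the first part the regions' share was below both other groups with no overlap of intervals, and in the last part its interval overlapped both of theirs.

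**Figure D3:**
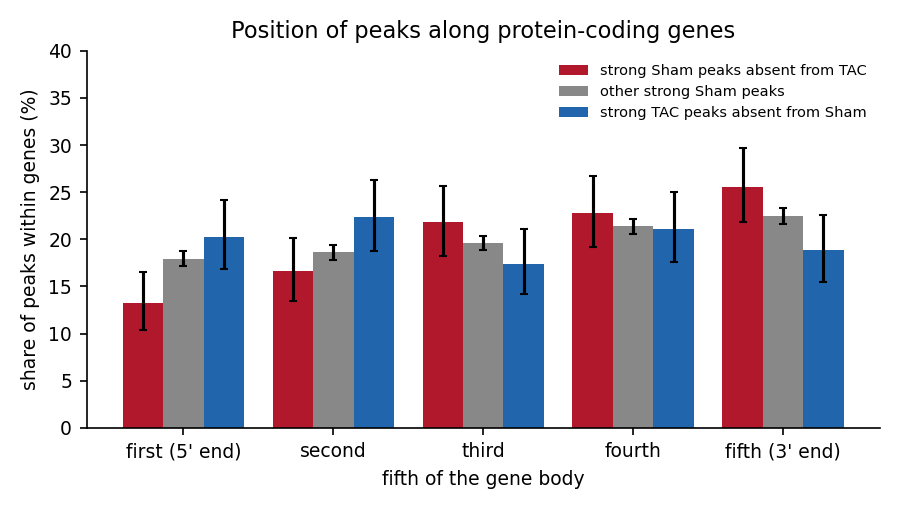
Share of peaks, in percent, whose midpoint falls in each of 5 equal parts of the host gene from the 5' end to the 3' end, for 500 strong Sham peaks absent from TAC, 9941 other strong Sham peaks and 488 strong TAC peaks absent from Sham, with exact 95% intervals of counting error. The first group climbs from 13.2% in the first part to 25.6% in the last, the other strong Sham peaks climb from 17.96% to 22.5%, and the TAC group stands at 20.3% and 18.9%.

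Gene density was higher around the regions. The median number of protein-coding genes in the 1 Mb window of a region was 11, against 9 for the other strong Sham peaks. That median was 6 for the strong TAC peaks absent from Sham and 8 for the other strong TAC peaks. Windows without a gene held 4.37% of the other strong TAC peaks and 2.91% of the other strong Sham peaks. Windows without a protein-coding gene held 11 regions, 1.43% (0.718 to 2.55) of the strong Sham peaks there, and the share then stood at 2.79% with 1 to 2 genes, 2.89% with 3 to 5, 3.57% with 6 to 10, 4.29% with 11 to 20 and 5.16% (4.49 to 5.91) with more than 20. The strong TAC peaks absent from Sham went the other way along the same windows. Their share of strong TAC peaks was 10.4% (8.92 to 12.1) in windows without a gene and 4.16% (3.56 to 4.83) in those with more than 20. The ratio of the 2 numbers, regions over strong TAC peaks absent from Sham, was 0.0710 (11 against 155) in the first class and 1.22 (199 against 163) in the last.

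The excess within genes was present at every gene density. In windows with more than 20 genes 79.9% (73.7 to 85.2) of the regions were in protein-coding genes, against 67.6% (66.1 to 69.2) of the other strong Sham peaks. With 11 to 20 genes the shares were 67.4% and 55.5%, with 6 to 10 they were 62.1% and 49.8%, with 3 to 5 they were 53.6% and 42.4%, and with 1 to 2 they were 55.6% and 38.9%. Windows without a gene midpoint held only 11 regions, of which 3 lay in a gene reaching in from a neighbouring window. In 5 of these 6 classes the intervals did not overlap.

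**Figure D4:**
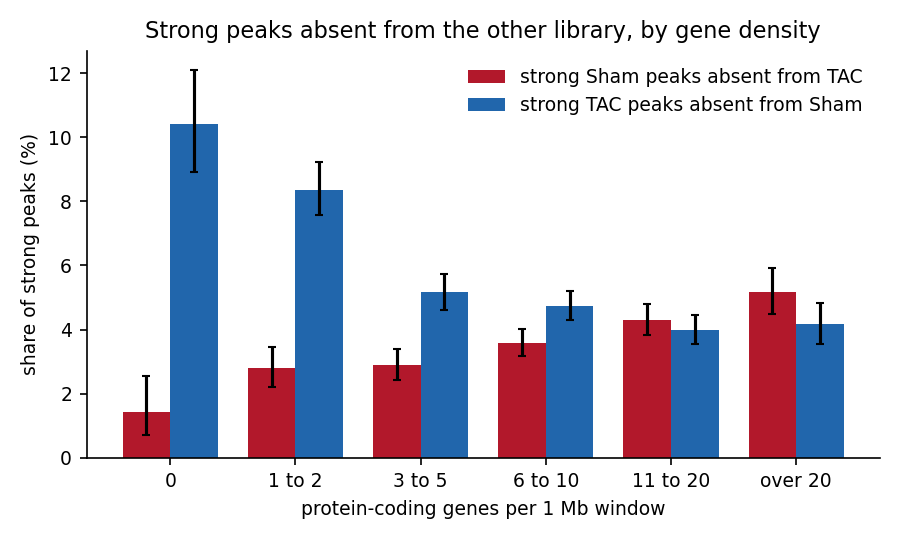
Share of strong Sham peaks absent from TAC among strong Sham peaks, and of strong TAC peaks absent from Sham among strong TAC peaks, in percent, by the number of protein-coding genes in the 1 Mb window, with exact 95% intervals of counting error. The Sham share climbs from 1.43% to 5.16% and the TAC share falls from 10.4% to 4.16% between gene-free windows and windows with more than 20 genes.

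By chromosome the regions numbered from 22 on chromosome 19 to 77 on chromosome 11. Their share of strong Sham peaks ran from 3.09% on chromosome 8 to 4.43% on chromosome 11, and the interval held the genome-wide 3.72% on 19 of 19 autosomes. No chromosome stood apart by this measure.

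Most of the 621 protein-coding genes with a region in the body had a single one. There were 562 with 1, 51 with 2, 6 with 3 and 2 with 4. Of the 621 genes, 559 held at least 1 TAC peak elsewhere in the body and 62 held none, and 54 also held a strong TAC peak absent from Sham. The same shares over all protein-coding genes are not given, so these numbers are not read as high or low. The rule bars TAC peaks within 1000 bp of a region, which can leave a short gene without one. Of 20665 autosomal protein-coding genes, 3.14% had a region in the body or at an end.

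Abcc4, an exporter of cyclic nucleotides and drugs, and Hivep3, a large zinc finger transcription factor, held 4 regions each. The Abcc4 regions had 51, 50, 37 and 36 tags in a gene with 40 TAC and 49 Sham peaks, and those of Hivep3 had 48, 48, 41 and 35 tags in a gene with 57 TAC and 65 Sham peaks. Stim1, the calcium sensor of the endoplasmic reticulum, held 3 (63, 44 and 39 tags) among 44 TAC and 55 Sham peaks. Plcb4, a phospholipase C acting below Gq-coupled receptors, held 3 (44, 41 and 40 tags) among 24 TAC and 38 Sham peaks. In each of these genes the Sham library had the greater number of peaks, the regions included.

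The other genes with 3 regions were Sfi1, Trerf1 (33 TAC and 31 Sham peaks), Ctif, a translation initiation factor (43 and 53), and Wwox, an oxidoreductase gene at a fragile site (158 and 160). Genes with 2 included, besides Rps6ka2, Atp9a and Ripor2, Frmd4b (57 TAC and 63 Sham peaks), Slc25a13, the mitochondrial aspartate-glutamate carrier (11 and 13), Ephb2, an ephrin receptor (37 and 48), and Spire1, an actin nucleator (8 and 22). In Spire1 15 Sham peaks and 1 TAC peak had no overlap with the other library.

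Most of the regions stood alone, with no other within 50 kb. Neighbouring regions on a chromosome were 907.9 kb apart at the median, against 904.3 kb for the strong TAC peaks absent from Sham with 1717 peaks. Chaining regions no more than 50 kb apart put 124 of them, 12.4% (10.4 to 14.6), into 59 chains, 54 of them pairs. Of the strong TAC peaks absent from Sham 9.96% (8.58 to 11.5) were chained. In 18 of the 59 chains no TAC peak lay anywhere in the span. Those spans ran from 2.118 to 21.22 kb, while the median over all 59 was 19.6 kb. The rule itself bars TAC peaks within 1000 bp of each region, and chains of other peaks were not counted in this way.

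There were 5 chains of 3 or more. Hivep3 held 4 regions over 92.63 kb (chr4:119970919-120063544), with 17 TAC and 22 Sham peaks in that span. The Sfi1 chain covered 43.33 kb with 1 TAC and 3 Sham peaks. A chain of 67.67 kb on chromosome 7 ran from Fxyd7, a regulator of the sodium pump, across Lgi4 to Hpn, the serine protease hepsin, with 9 TAC and 15 Sham peaks, and its regions had 68, 70 and 42 tags. Fxyd1, the phospholemman gene of heart muscle, lies inside that span. The Stim1 chain was the shortest, 14.31 kb with 3 TAC and 5 Sham peaks, and the Meis2 chain, at a homeobox gene, covered 86.59 kb with 10 TAC and 12 Sham peaks.

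About as many TAC-free stretches held a single Sham peak as held several. Between the flanking TAC peaks, the 1004 regions fell into 983 such stretches with a median length of 16.2 kb. Of these, 508 or 51.7% held a single Sham peak, 275 held 2, 133 held 3 and 67 held 4 or more. The most was 7 Sham peaks over 77.01 kb, from Med9 across Rasd1 to Pemt, a phospholipid methyltransferase, on chromosome 11 (59943165 to 60020171). Stretches with 6 Sham peaks included those within Spire1 (26.43 kb), Kit, a receptor tyrosine kinase (50.42 kb), Cd247, the zeta chain of the T cell receptor complex (51.26 kb), and Fat4 (121.8 kb), and across Ren1 (71.78 kb). Each named stretch held 1 of the 1004 regions, so its other Sham peaks were not among them. Only 21 of the 983 stretches held more than 1 region. Stretches without a region were not counted, so these numbers have no background. The genes of the named stretches were chosen after their values were seen.

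Around the regions peak numbers in TAC and Sham were nearly equal, although the whole TAC list is longer, with 162107 peaks against 135886. Between 1 and 10 kb on either side, a region had 2.11 TAC peaks (2.02 to 2.20) and 2.23 Sham peaks (2.14 to 2.32) on average. The other strong Sham peaks had 2.08 (2.06 to 2.10) and 2.15 (2.13 to 2.17). Of the 2237 Sham peaks counted around the regions, 66.7% (64.7 to 68.7) overlapped a TAC peak, against 68.4% (68.0 to 68.8) around the other strong Sham peaks. Neighbouring peaks were thus shared at nearly the same rate, and the intervals overlap. The strong TAC peaks absent from Sham had 1.39 TAC and 1.21 Sham peaks in the same range.

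**Figure D5:**
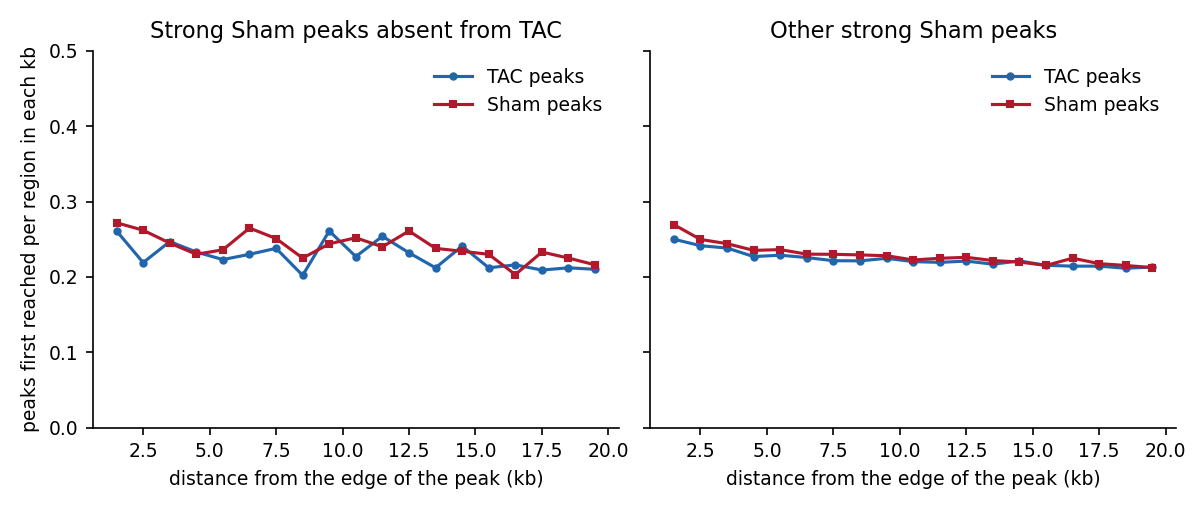
Mean number of peaks first reached in each kb from the edge of the region, for TAC peaks and Sham peaks, around the strong Sham peaks absent from TAC and around the other strong Sham peaks. The first kb, where the TAC value around the regions is 0 by the rule, is not drawn. In the second kb around the regions the TAC value is 0.261 and the Sham value 0.272.

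Ends of protein-coding genes were within 1000 bp of 80 regions, 7.97% (6.37 to 9.82), against 5.04% (4.78 to 5.32) of the other strong Sham peaks and 3.38% (2.58 to 4.35) of the strong TAC peaks absent from Sham. Among the other strong TAC peaks the share was 3.87%. A wider peak reaches an end more easily, and the part of width (median 1022.5 bp, against 806, 777 and 770 bp) in these shares and in those of promoter windows was not tested. The 80 regions touched 86 genes, at the 3' end in 36, at the 5' end in 29, at both in 5 and at an end of a gene of unknown strand in 16. The 3' ends included Pkn3 and Zdhhc12, which meet tail to tail (70 tags), Chgb, the chromogranin B gene of secretory granules (70), Zmat5 (69), Slc7a8, an amino acid transporter (63), and Dyrk3, a protein kinase (62). The 5' ends included Nxnl2 (78 tags), Psrc1, a spindle protein (71), Rhov, a small GTPase (69), and Tdgf1, the Nodal co-receptor Cripto (61). Ccin (72), Olfr282 (71) and Ccdc185 (67) were small enough for one region to reach both ends, and in Insl6 (102) and Fxyd7 (68) the end could not be told.

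Promoter windows were overlapped by 31 regions, 3.09% (2.11 to 4.35), against 1.59% (1.45 to 1.75) of the other strong Sham peaks and 0.990% (0.578 to 1.58) of the strong TAC peaks absent from Sham. Among the other strong TAC peaks the share was 1.22%. The 31 regions touched 38 windows of 33 genes, 19 protein-coding and 14 for long non-coding RNA, and 16 windows lay wholly inside a region. The median window had 7 CpGs (5 to 9), and 10 of 38, 26.3%, had 10 or more. These windows are not independent, since nearly identical ones of Gm35477, with 4 or 5 CpGs each and touched by the same region, are counted separately. In the reference as a whole the median was also 7, and 43.5% of 32851 windows had 10 or more, counting CG, which reads the same on both strands. The windows of the other strong Sham peaks had a median of 6, with 10 or more in 32.6%.

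The promoters shown at the start include those of Tex19.1 and Henmt1, picked after their values were seen, and no share of germline genes among the 33 was computed. The window of Tex19.1, a gene of germ cells and placenta, has 16 CpGs. It was touched by a region of 44 tags at chr11:121145789-121146755 whose nearest TAC peak was 10739 bp away, and the gene held 0 TAC peaks and 2 Sham peaks. The window of Henmt1, the methyltransferase of piRNA ends, has 31 CpGs and was touched by a region of 47 tags at chr3:108939513-108941228, 14098 bp from a TAC peak. Henmt1 held 4 TAC and 4 Sham peaks. Ccin, the gene of the sperm head protein calicin, had 0 TAC peaks and 1 Sham peak, as did Ccdc185 and both olfactory receptor genes, Olfr282 and Olfr283. Each of these genes lies wholly within 1000 bp of its region, so the rule itself excluded a TAC peak from the gene body. Tdgf1 had 1 TAC and 2 Sham peaks. The region over the promoter of Gm32028, a non-coding RNA gene, had 71 tags and no TAC peak for 23510 bp.

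The renin gene Ren1 had a region of 41 tags over its promoter (chr1:133349932-133350890) with no TAC peak for 20054 bp, and held 0 TAC and 2 Sham peaks. Its window has 1 CpG. At Lck, the tyrosine kinase of T cells, a region of 35 tags lay over the promoter (chr4:129573215-129574054), and the gene held 3 TAC and 4 Sham peaks. The region over miR-142 had 38 tags at chr11:87756201-87757489, with the nearest TAC peak 5175 bp away. It covered the whole of both hairpins, of which the longer spans chr11:87756841-87756955. Henmt1, Ren1, Lck and miR-142 were named after their values were seen.

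As a share of their strong Sham peaks, none of the 14 gene lists held more or fewer of the regions than counting error allows. Of 30 sarcomere and Z-disc genes with 14 strong Sham peaks, 0 held one. By the limit of 3 counts that allows a share of up to 21.4%, and the exact interval ends at 23.2%. Of 24 cardiac transcription factor genes with 30 strong peaks, 0 held one (limit 10%, exact 11.6%), and of 30 homeobox and Polycomb target genes with 13 strong peaks, 0 did (limit 23.1%, exact 24.7%). Calcium handling and ion channel genes held 4 of 76 strong peaks, 5.26% (1.45 to 12.9), with 3 of them in Stim1. Dsp, a desmosome gene, held the region nearest to the distance limit and is in none of these lists.

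Fetal, load-induced and hypertrophic signalling genes held 6 of 65 strong peaks, 9.23% (3.46 to 19.02). Besides the 3 in Plcb4 they lay in Plcb1, its paralog (44 tags), Hdac9, a histone deacetylase that restrains hypertrophic genes (37 tags), and Nfatc1, a calcineurin-regulated transcription factor (37 tags). Plcb1 held 36 TAC and 21 Sham peaks, Hdac9 56 and 50, and Nfatc1 19 and 22, so the gene totals did not share a direction. The Plcb1 region, at chr2:134795415-134797312, had no TAC peak for 20554 bp.

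Fibroblast and matrix genes held 4 of 36 strong peaks, 11.1% (3.11 to 26.1), in the collagen genes Col6a3 (59 tags) and Col5a1 (44), in Pdgfra (39) and in Tgfb2 (38). Germline genes held 3 of 26, 11.5% (2.45 to 30.2), in Tex19.1, Dpep3, a dipeptidase of the testis (40), and Piwil2, a piRNA-binding protein (39). Smooth muscle and pericyte genes held 2 of 35 (Cspg4 and Abcc9), endothelial genes 1 of 53 (Erg), immune genes 1 of 17 (Mrc1), imprinted genes 1 of 42 (Peg3), metabolic genes 1 of 21 (Slc2a1, the glucose transporter GLUT1) and genes of DNA methylation 1 of 8 (Dnmt1, the maintenance methyltransferase). The 18 housekeeping genes had 2 strong Sham peaks and 0 of the regions. The interval of each list held 3.72%, the share among all strong autosomal Sham peaks. That share takes in peaks outside genes, while the list peaks lie in genes or at their ends. Regions were more frequent in protein-coding genes, which held 65.1% of them and 50.1% of the other strong Sham peaks. Counted per gene, a region was held by 4 of 23 fibroblast and matrix genes (17.4%), 2 of 12 smooth muscle and pericyte genes (16.7%) and 4 of 35 hypertrophic signalling genes (11.4%), against 3.14% of all autosomal protein-coding genes. Those genes hold 36, 35 and 65 strong Sham peaks, and the part of gene length in the counts per gene was not tested.

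The list genes with a region mostly held peaks of both libraries in body and ends. Dnmt1 held 4 TAC and 6 Sham peaks, with the region (44 tags) at chr9:20926621-20927271. Slc2a1 held 4 and 5, Col6a3 8 and 12, Col5a1 21 and 27, and Pdgfra 3 and 3. Peg3, an imprinted zinc finger gene expressed from the paternal copy, held 2 and 3. Tex19.1 and Dpep3 were the list genes with a region and 0 TAC peaks, with 2 and 1 Sham peaks.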

How the data were processed

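The tools named in the submitters' processing notes are HOMER 4.5, BWA 0.7.4-r385 and Picard, and the build is mm10. Per the file headers, the authors called variable-length regions separately in the TAC and the Sham library with findPeaks in its histone style, against 1 input, with 500 bp as peak size, 1000 bp as minimum distance, and 4-fold enrichment over input at a Poisson p-value of 1e-04. The headers also list a requirement of 4-fold over a local region of 10000 bp. The score that the authors deposited is 1 for every peak and was not used. The Input library entered only that peak calling.

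The inferred tag numbers (8 in the last block) sum to 99.34% of the TAC and 99.26% of the Sham tags in peaks that the headers give. No source used here states this reading of file order, and it understates the strongest peaks. Distances count the bases between peaks, and starts were turned to 1-based positions. Genes were those of RefSeq GRCm38.p6, assigned by peak midpoint, and windows of 1 Mb counted protein-coding genes by their midpoints. The selection was made in Python 3.11.15 with pandas 2.3.3 and repeated with bedtools 2.31.1, and the scripts were tested on simulated data. Intervals are exact (Clopper-Pearson, scipy 1.17.1, and Poisson for means), those of medians from order statistics. No comparison between groups was tested, because each group has 1 library, and no p-value is given.

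The regions and the 14 gene lists were chosen with earlier results of these data known. Named genes were those of the first 20 regions in file order, the 10 widest, the 15 genes with most regions, the first 15 with a region at an end, chains of 3 or more, list genes with a region, the nearest 5 on each side of the distance limit, and the first 6 with a promoter overlapped. Other names are marked as chosen after seeing values, and a few genes that the rule names are not reported here. The alternatives varied the strength limit, the distance, the TAC list, the gene assignment and the window sizes. Leaving out the Sfi1 regions, and taking rows from 10% to 20% of the list, were added after seeing the data.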

Additional observations from a re-analysis of the deposited data

Results flagged for a closer look

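Outside the autosomes, which the selection did not use, 4 of 189 strong Sham peaks on chromosomes X and Y also had no TAC peak overlapping or within 1000 bp. They lay at chrX:166896421-166897317 (48 inferred tags, nearest TAC peak 14422 bp away), chrX:73421653-73422789 (44 tags, 17667 bp), chrY:90800151-90800651 (41 tags, 6420 bp) and chrX:11137090-11138546 (39 tags, 8140 bp). They entered no comparison.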

How the results depend on the processing

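The regions lay in protein-coding genes more often than the other strong Sham peaks in 10 of 10 settings and within reach of gene ends in 11 of 11, and they were fewer in gene-free windows and more frequent in windows with over 20 genes in 11 of 11. They were wider in 8 of 9. The exception was strength taken as the widest 20% of peaks, where the median was 863 bp, against 945 bp for the others. The share in protein-coding genes ran from 60.5% to 70.6%. Leaving out the Sfi1 regions moved none of the results.

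The number of regions and the number of strong TAC peaks absent from Sham were 177 and 225 for the first 10% of each list, 2748 and 4947 for the first 30%, 2782 and 5023 for the widest 20%, and 358 and 1010 with no peak within 5000 bp. With the TAC list held to the Sham number of peaks, they were 1172 and 1057, which turns their order round.

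For the first 10% of rows, 76.8% of the regions were in annotated and 70.6% in protein-coding genes, 13.6% were near gene ends, 5.08% were chained and 23.2% lay in windows with over 20 genes. The median width was 1472 bp, and within 10 kb there were 2.29 TAC and 2.56 other Sham peaks on average, counted here from the region's edge. For the first 30% these values were 69.0% and 60.6% in genes, 25.1% chained, 16.7% in dense windows, 773 bp (761 bp for the other strong peaks), 1.97 TAC and 2.18 Sham peaks. For the widest 20% they were 69.0% and 60.5%, 25.5% chained, 2.19% in gene-free and 17.1% in dense windows, 863 bp, 1.97 TAC and 2.16 Sham peaks. Rows from 10% to 20% gave a width of 940 bp. With overlap alone counted as presence, 15.1% were chained, with 2.34 TAC and 2.53 Sham peaks nearby. With no TAC peak within 5000 bp, 12.0% were near gene ends and 6.70% were chained, with 0.933 TAC and 1.44 Sham peaks nearby. With the TAC list reduced, 15.5% were chained and 1.86 TAC peaks were nearby.

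Other reaches and sizes moved values by construction. Gene ends were reached by 5.08% at 500 bp and 23.8% at 5000 bp, chains held 4.28% with gaps of 10 kb and 34.2% with 200 kb, and gene-free windows held 5.58% at 500 kb and 0.0% at 2 Mb. Within 5 kb there were 0.960 TAC and 1.12 Sham peaks, and within 50 kb 10.5 and 11.02. The cause of the other movements was not tested.

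No paired analysis was possible because each group has 1 library. A TAC signal under the peak threshold cannot be seen in peak lists, and with 1 library per group a difference between animals, isolations or libraries cannot be told apart from one between TAC and Sham.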
